A study of Mus musculus with 24 samples.

Results

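The core histone gene clusters of the mouse were followed through 16 CUT&RUN peak lists. Members were the protein-coding genes on mm10 whose symbol is H2ac, H2bc, H3c or H4c followed by a number. Such symbols name replication-dependent genes of the 4 core histones. The rule found 57 genes of 21887 protein-coding genes, with 17 genes for H2A, 16 for H2B, 12 for H3 and 12 for H4. Chromosome 13 carries 47 of them and chromosome 3 carries 10, and none of the 57 lies on another chromosome. Histone genes with other symbols, such as H2aw and H2bu2 on chromosome 11, fall outside the rule. Their positions gave 5 groups when the chromosomes were split at gaps above 100 kb.

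Core histones form the protein spool of the nucleosome, H2A and H2B as a dimer, H3 and H4 as a tetramer. Their replication-dependent genes are short, mostly lack introns, are transcribed in S phase and yield messages that end in a stem-loop and not in a poly(A) tail. Many H2A and H2B genes stand head to head and share a promoter, and such genes in human and mouse cells assemble a histone locus body around the coactivator NPAT. H1.0 is a linker histone encoded by H1f0, which accumulates in differentiated and resting cells. H3K9me3 is the trimethyl mark of heterochromatin, and MEF2C is a cardiac and muscle transcription factor that binds an A/T-rich site.

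The cells were the line iMGT-Myh6-eGFP-MEF, mouse embryonic fibroblasts in which doxycycline induces Mef2c, Gata4 and Tbx5 and which carry an eGFP reporter named for Myh6. All groups share these transgenes. MEF2C was mapped at day 1 of induction with 1 µg/mL doxycycline after transfection of siControl (n = 2), siJunb (n = 3) or siH1f0 (n = 3). H1.0 and H3K9me3 were each mapped in ground-state cells (n = 2), for which the labels give neither an siRNA nor doxycycline, and at day 1 under siControl (n = 2). Day 1 and ground state therefore differ in transfection and doxycycline, which cannot be told apart here. The sources used here do not name the promoter that drives the transgenes, and peak lists do not separate induced MEF2C from the cells' own. Samples are labelled as biological replicates, but nothing says that they came from separate cultures, so a p-value reflects only how these samples scatter, part of which may be technical. Peak lists hold no RNA levels, so neither the labelled cell type nor the knockdown of Junb and H1f0 was checked, and 8 IgG samples were not analysed here.

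By covered length the lists fall into sparse and dense ones, and this split follows the 2 naming series of the file names. Lists in the first series have library codes that start with M. They were the MEF2C lists siControl 1, siJunb 1 and siH1f0 3, with 11731 to 17871 peaks over 13.4 to 22.5 Mb, against 22870 to 49011 peaks over 56.4 to 89.8 Mb in the other 5. H1.0 lists covered 93.0 and 1109 Mb in ground state 1 and 2, and 911 and 28.6 Mb in day 1 siControl 1 and 2, so the replicate numbers cross the naming series there. H3K9me3 lists covered 65.9 and 315 Mb in the ground state and 109 and 363 Mb at day 1. Their numbers of peaks do not follow the split, with 24219 and 65706 in the ground state and 69439 and 44625 at day 1. The labels give 30 M reads for each sample. The aligned reads are not in the sources used here, and the depth behind a peak is unknown.

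The promoters below are shown because they belong to 5 of the 8 genes in the 2 regions whose MEF2C peaks ranked highest next to members. Each is the RefSeq GRCm38.p6 sequence from 250 bases before to 50 bases after the annotated start, 5′ to 3′ on the strand of the gene. Capitals mark the CCAAT box, matches to TATAAA and the octamer ATTTGCAT, searched on both strands, so a CCAAT box on the other strand reads ATTGG. H4c1 (chr13:23761200-23761499, minus strand) and H4c2 (chr13:23756687-23756986, plus strand) encode H4 and share a peak region with H3c1. H2ac7 (chr13:23574131-23574430, plus strand) is an H2A gene that stands head to head with H2bc7. H2bc8 (chr13:23571150-23571449, plus strand) is an H2B gene that stands head to head with H2ac8, and H3c4 (chr13:23575513-23575812, plus strand) encodes H3.
H4c1: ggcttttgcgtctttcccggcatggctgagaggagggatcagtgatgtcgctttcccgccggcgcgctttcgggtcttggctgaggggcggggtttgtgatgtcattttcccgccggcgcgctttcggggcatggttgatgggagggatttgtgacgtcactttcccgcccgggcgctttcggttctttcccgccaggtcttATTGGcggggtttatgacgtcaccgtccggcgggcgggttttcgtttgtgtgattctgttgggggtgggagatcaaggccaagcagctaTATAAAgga
H4c2: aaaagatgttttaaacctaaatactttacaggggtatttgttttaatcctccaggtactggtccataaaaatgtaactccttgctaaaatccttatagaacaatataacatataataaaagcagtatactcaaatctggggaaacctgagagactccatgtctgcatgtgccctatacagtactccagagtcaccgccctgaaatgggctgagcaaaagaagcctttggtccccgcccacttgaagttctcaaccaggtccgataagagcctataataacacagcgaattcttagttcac
H2ac7: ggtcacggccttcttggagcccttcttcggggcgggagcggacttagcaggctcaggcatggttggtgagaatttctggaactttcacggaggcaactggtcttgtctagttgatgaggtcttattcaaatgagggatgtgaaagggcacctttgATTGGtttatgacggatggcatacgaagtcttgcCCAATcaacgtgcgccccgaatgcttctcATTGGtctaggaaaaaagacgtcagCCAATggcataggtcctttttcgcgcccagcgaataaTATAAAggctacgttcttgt
H2bc8: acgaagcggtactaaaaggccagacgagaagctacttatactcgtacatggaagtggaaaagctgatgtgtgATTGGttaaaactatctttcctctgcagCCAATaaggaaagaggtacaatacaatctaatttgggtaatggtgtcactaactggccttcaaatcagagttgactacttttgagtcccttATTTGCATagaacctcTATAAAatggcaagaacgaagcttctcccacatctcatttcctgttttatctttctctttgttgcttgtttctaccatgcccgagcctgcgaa
H3c4: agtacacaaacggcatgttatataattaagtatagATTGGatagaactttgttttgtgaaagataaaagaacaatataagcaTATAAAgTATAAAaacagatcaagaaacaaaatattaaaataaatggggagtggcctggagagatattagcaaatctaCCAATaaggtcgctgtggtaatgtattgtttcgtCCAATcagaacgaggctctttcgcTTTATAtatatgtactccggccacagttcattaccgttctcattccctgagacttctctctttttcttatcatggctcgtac

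A promoter entry was found for 52 of the 57 members, with 53 promoters in all. Windows of head-to-head genes can overlap, and a site in both is then counted for each gene. The same octamer, for example, is counted for H2ac8 and for H2bc8, so the promoters are not separate units. H3c7, H3c1, H4c14, H2bc4 and H2bc21 are named only. CCAAT, the site of the factor NF-Y, lay in 45 of 53 member promoters (84.9%) against 38.2% of all 21263 promoters. It was in all 17 H2A, all 15 H2B and all 10 H3 promoters, and in 3 of 11 H4 promoters. TATAAA, the letters of a TATA box, lay on either strand anywhere in the window in 30 member promoters (56.6%) against 12.6% of all. Relative to the annotated start its median position was -32 in H2A, -190 in H2B, -89.5 in H3 and -79.5 in H4. Many matches therefore need not be the TATA box of the gene they are counted for. The octamer ATTTGCAT, a POU factor site known from H2B genes, lay in 13 member promoters (24.5%) against 1.66% of all. H2B accounted for 7 of its 15 and H2A for 6 of its 17, and no H3 or H4 promoter had it. In H2B the octamer matches had a median position of -59 relative to the annotated start.

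Motifs of the factors under study were found in few of these windows. The MEF2 consensus was found in 2 of 53 member promoters (3.77%) and in 2.74% of all promoters. These 2 are H3c11, where it starts at -152, and H2ac1, where it starts at -33, and in both the match overlaps a TATAAA match. TGANTCA, the AP-1 site that JUNB binds with its partners, was found in 2 member promoters (3.77%), H2bc13 and H2ac13, and in 6.99% of all. The windows of H2bc13 and H2ac13 overlap, and both matches are the same site. None of the 5 promoters shown holds either motif, and H4c2 holds none of the 5 motifs searched. A match is only a match of letters, and absence concerns these windows alone. The median G+C content was 45% in member promoters and 56.3% in all.

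MEF2C peaks lay next to nearly all core histone genes. A gene was counted as held by a library when at least 1 bp of a peak fell within 5 kb of its annotated ends. Under siControl 49 and 55 of 57 members were held, under siJunb 47, 57 and 55, and under siH1f0 55, 55 and 51. The 3 conditions overlap, and the lowest value of each belongs to a sparse list. Over all protein-coding genes the same libraries held 30.1% and 49.2% under siControl, 26.6%, 53.8% and 41.8% under siJunb, and 44.8%, 52.2% and 34.7% under siH1f0. As group means, 91.2% ± 7.44 of members were held under siControl (SD, n = 2), 93.0% ± 9.28 under siJunb (SD, n = 3) and 94.2% ± 4.05 under siH1f0 (SD, n = 3).

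Both siControl libraries held 49 members, against 28.4% of all protein-coding genes. All 8 libraries held 44 members, against 16.1% of all protein-coding genes. A further 4 members were held by 7 libraries, 7 by 6 libraries and 2 by a single library, and none was held by none. Among all protein-coding genes 31.6% were held by no library. Counting only peaks above the median maximum signal of their list, all 8 libraries held 28 members against 10.3% of all genes. With the whole peak required inside the window, all 8 held 17 members against 14.8% of all genes.

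**Figure D1:**
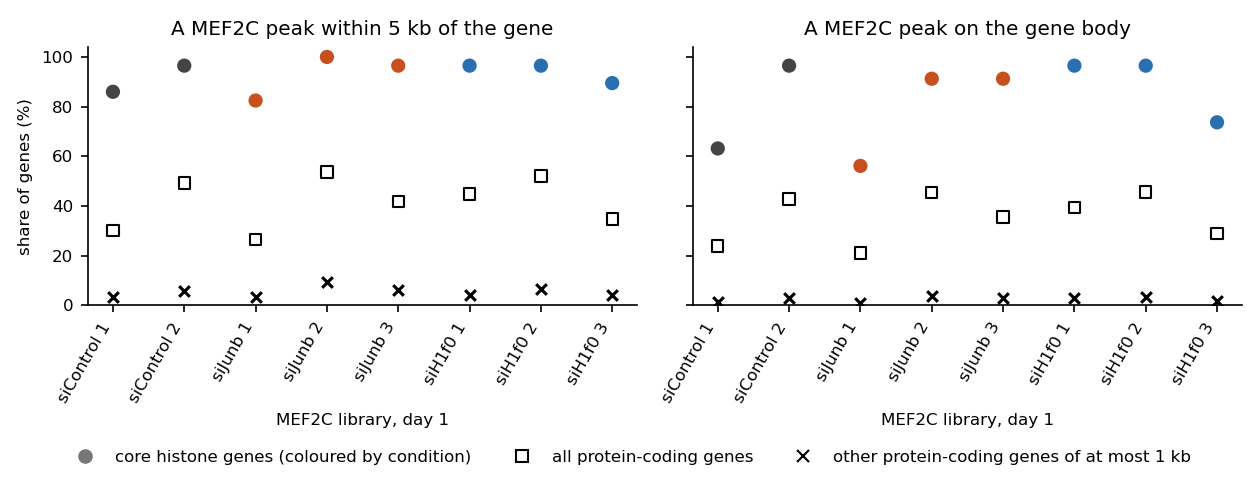
Share of genes with a MEF2C peak within 5 kb (left) and on the gene body (right), in percent, for each of the 8 day 1 libraries. Filled circles are core histone genes, coloured by condition, squares are all protein-coding genes and crosses are other protein-coding genes of at most 1 kb; core histone genes lie between 82.5% and 100% in the left panel, above both comparison sets in every library.

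Peaks also covered the genes themselves. The mean share of a member's body under MEF2C peaks was 48.7% and 89.6% under siControl, 44.6%, 77.5% and 78.5% under siJunb, and 91.1%, 89.5% and 58.7% under siH1f0. Over all protein-coding genes it ran from 1.34% to 7.73%. Core histone genes are short, and 52 of the 57 span at most 1 kb, so a single peak can cover one whole. Over the 1525 other protein-coding genes of at most 1 kb the mean was 0.688% to 2.59%, below that of the members in each library. At least 1 bp of the body was under a peak for 36 and 55 members under siControl, for 32, 52 and 52 under siJunb, and for 55, 55 and 42 under siH1f0. Over all protein-coding genes 21.0% to 45.7% of bodies were touched, and over other genes of at most 1 kb 1.11% to 3.61%.

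Merged MEF2C regions next to members were wide and often covered several genes. Merging the 8 lists gave 77240 regions, whose median width was 1951 bp. Of these, 39 lay within 5 kb of a member, and their median width was 3836 bp. Of the 39, 14 were held by all 8 libraries and 12 by a single one. The 14 had a median width of 12139 bp and carried the bodies of 47 members. The widest spanned 23443 bp at chr13:23523974-23547416, from the first gene of the largest group, H4c8, onward. It held 3 to 7 separate peaks in each library. These widths are of regions and not of peaks, whose median width in a MEF2C list was 943 to 2069 bp. Merging alone can widen regions held by many libraries, and the width of 8-library regions elsewhere is not given here. Members that share a region are not independent observations. Genes of a family are near-identical in their coding sequence, and the sources used here do not say where reads that map to several of them were placed, so body shares of single genes are uncertain to that extent.

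MEF2C peaks often lay over the 53 member starts. In the 100 bp before the start, 58.5% and 96.2% of member starts were under a MEF2C peak under siControl, 52.8%, 90.6% and 86.8% under siJunb, and 96.2%, 96.2% and 71.7% under siH1f0. At other protein-coding starts the same share was 8.01% to 30.1%. At 3 kb upstream it had fallen to 9.43% to 58.5% of member starts. The nearest point of maximum signal lay within 1 kb of the start for 30 to 38 of the 53, depending on the library, and the median distance was 452 to 739 bp. Of those within 1 kb, 17 to 28 lay upstream. With short genes in tight groups, these values do not separate a promoter from the gene body or from a neighbouring gene.

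**Figure D2:**
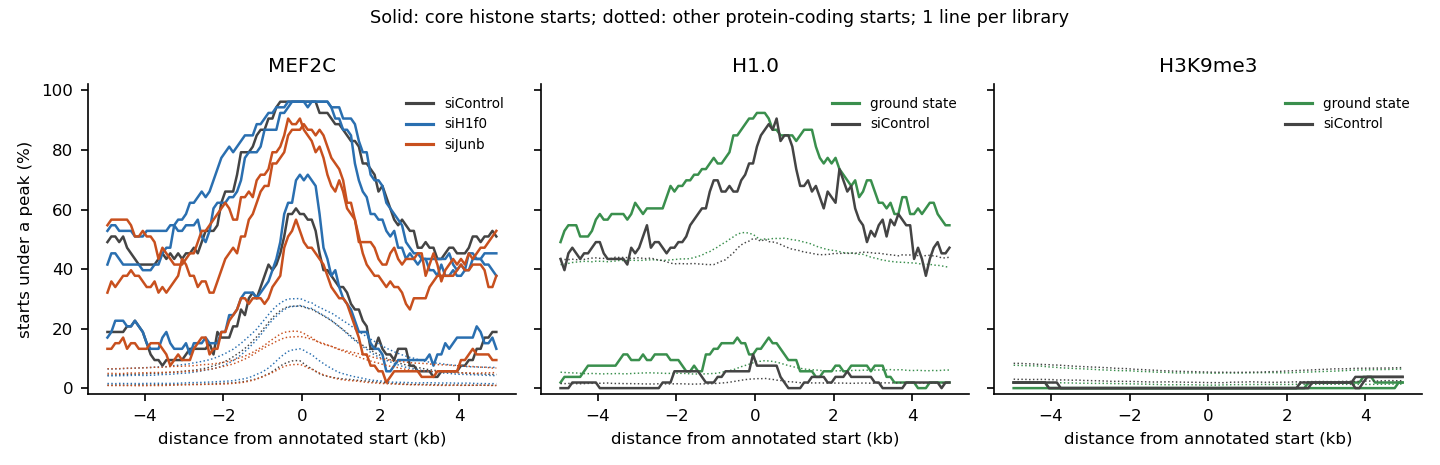
Share of starts under a peak, in percent, by distance from the annotated start in kb (100 bp bins, negative upstream), for MEF2C, H1.0 and H3K9me3. Each line is 1 library, solid for core histone starts and dotted for other protein-coding starts, coloured by condition. MEF2C lines of core histones peak near the start at 56.6% to 96.2%. H1.0 lines split into 2 high and 2 low libraries, and H3K9me3 lines of core histones stay at or under 3.77%.

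The number of genes held in all 8 libraries varied along the chromosomes. On chromosome 3, the group from H2ac21 to H2bc18 (chr3:96219885-96270192) had 6 of 10 genes held in all 8 libraries. On chromosome 13, the group from H2bc13 to H2ac24 (chr13:21715711-21833475) had 13 of 16, and the group from H2ac12 to H2bc11 (chr13:22035122-22043658) had 3 of 5. The largest group, from H4c8 to H3c1 (chr13:23531044-23762386), had 22 of 24. The last one, H2bc1 and H2ac1 (chr13:23933725-23934913), known as testis histone genes, had 0 of 2.

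H2bc1 and H2ac1 stood apart from the other members. Neither had a MEF2C peak within 5 kb in 7 of the 8 libraries. In siJunb 2, the list with the most peaks, a peak at percentile 75.9 of that list covered 45.6% of H2bc1 and 100% of H2ac1. The H2ac1 promoter is 1 of the 2 with a MEF2 match, and its body was under no MEF2C peak in both siControl and all 3 siH1f0 libraries.

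The strongest MEF2C peaks were in the largest group on chromosome 13. For each gene the strongest peak within 5 kb was ranked by its maximum signal within its own list, as a percentile that is 100 for the strongest peak and 0 where there is no peak. The signal is the authors' and is not scaled between lists. H3c1, H4c1 and H4c2 share a region (chr13:23755750-23767252) and had percentiles of 84.5 and 96.7 under siControl, 95.6, 98.5 and 96.5 under siJunb, and 96.6, 97.3 and 94.4 under siH1f0. All 8 are at 84.5 or above, siControl 1 is the lowest, and the conditions overlap.

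H2ac8, H2bc8, H2bc7, H2ac7 and H3c4 share the next region (chr13:23568875-23577768). Their percentiles were 95.0 and 94.4 under siControl, 88.0, 97.4 and 96.8 under siJunb, and 92.0, 94.0 and 80.9 under siH1f0. The conditions overlap here too. H4c4 follows with a median of 88.3, but its values in siControl 2, siJunb 2, siH1f0 1 and siH1f0 2 are those of this neighbouring region, which reaches into its 5 kb window. The region on H4c4 itself (chr13:23579013-23587488), shared with H2bc6, was held by 6 libraries and had a median percentile of 55.2. H4c4 had no peak within 5 kb in siControl 1 and siH1f0 3. Its percentiles elsewhere were 94.4 in siControl 2, 23.6, 97.4 and 84.7 under siJunb, and 92.0 and 94.0 in siH1f0 1 and 2. H2ac22, at 83.8, completes the 10 genes and is tied with H2bc22 and H3c11, which share its region.

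Among the first and last genes of the groups, H3c1 had the highest median percentile of all members, 96.5. H4c8 had a median percentile of 76.7, H2bc13 of 77.3, H2ac24 of 66.5, H2ac12 of 71.1 and H2bc11 of 63.1. On chromosome 3, H2ac21 had 58.9 and H2bc18 had 71.1. H2bc18 had no peak within 5 kb in siH1f0 3 and siJunb 1, both sparse lists. H2ac24 had none in siControl 1 and siJunb 1.

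The share of the body under MEF2C peaks varied among the 4 histone families. H3 bodies were under MEF2C peaks to 82.4% in siControl 1 (11 of 12 touched), 52.3% in siJunb 1 (7 of 12) and 66.3% in siH1f0 3 (10 of 12). H4 bodies were so to 17.1% (3 of 12), 24.2% (3 of 12) and 55.4% (7 of 12) in the same lists. In siControl 2, siH1f0 1 and siH1f0 2 both families were at 100%. In siJunb 2 and 3, H3 was at 91.7% and 98.9% and H4 at 66.5% and 76.0%. H2A lay at 55.4% and 92.3% under siControl, 47.8%, 75.5% and 73.9% under siJunb, and 94.1%, 91.3% and 71.5% under siH1f0. H2B lay at 40.0% and 71.3% under siControl, 50.9%, 77.1% and 69.8% under siJunb, and 74.7%, 72.0% and 41.9% under siH1f0.

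Part of the H2B value comes from 3 long annotations. H2bc6 is annotated over 37455 bp, H2bc22 over 14079 bp and H2bc4 over 8282 bp. Their mean body share over the 8 libraries was 7.49%, 6.22% and 18.0%, while the strongest peak within 5 kb of H2bc22, in the region it shares with H2ac22 and H3c11, had a median percentile of 83.8. At the other end, 5 members were covered whole in all 8 libraries, H3c1 among them.

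MEF2C was compared between siJunb and siControl, which asks where its peaks differ after knockdown of the AP-1 factor JUNB. No core histone gene was gained, that is held by all 3 siJunb libraries and no siControl library, against 0.704% of all protein-coding genes. Only H2bc1 and H2ac1 could count as gained, since siControl 2 held the other 55 members, against 49.2% of all genes. The count of gained members was therefore nearly fixed by siControl 2. None was lost, that is held by both siControl libraries and no siJunb library, against 1.15% of all. Two-sided exact permutation tests of 3 against 2 libraries cannot go below p = 0.2. Leaving out siControl 2 leaves the sparse siControl 1 alone, and then 3 members count as gained, H4c4, H2bc6 and H4c14, against 4.24% of all genes.

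limma with Benjamini-Hochberg adjustment was run on the percentiles of 12773 genes held in at least 2 libraries. It called 9 genes for siJunb against siControl, which is 0.0705%, and none of the 55 members tested, which leave out H2bc1 and H2ac1. Over all genes that count was 281 (2.2%) without siJunb 1 and 0 without any other single library, with no member called in either case. No member had an unadjusted p under 0.05, against 648 of all genes tested. The smallest adjusted p among members, by limma, was 0.896, for H3c2, an H3 gene. Its percentiles were 19.7 and 96.7 under siControl and 80.6, 97.4 and 86.9 under siJunb, a difference of 30.2 with an SE of 20.9. The siJunb values lie within the range that siControl spans, except siJunb 2. For H4c1 the difference was 6.29 with an SE of 6.93, and for H2ac7 -0.63 with an SE of 7.55.

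By estimate alone 42 of the 55 members were higher under siJunb and 13 lower. Members that share a region often have the same estimate, as H2ac8, H2bc8, H2bc7, H2ac7 and H3c4 do at -0.63. These counts are therefore not of separate units, and the matching share of all genes tested is not given here. The median difference was 6.29 percentile points, beside 3.59 over all genes tested. The mean body share went the other way when lists of the same naming series are set side by side. In the first series it was 48.7% under siControl and 44.6% under siJunb, and in the second 89.6% under siControl and 77.5% and 78.5% under siJunb. Each series holds 1 siControl library, so these within-series differences have no replicate error. Over all genes the same shares were 1.34% and 1.36% in the first series, and 6.23% against 6.76% and 5.82% in the second. Over the pooled libraries the group means were 69.2% ± 29.0 under siControl (SD, n = 2) and 66.9% ± 19.3 under siJunb (SD, n = 3), a difference smaller than the spread within either group.

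Knockdown of H1f0 was compared in the same way. No member was gained under siH1f0, against 0.621% of all protein-coding genes, and none was lost, against 0.183%. Again only H2bc1 and H2ac1 could count as gained, since siControl 2 held the other 55 members. Without siControl 2, 4 members count as gained, H4c11, H4c18, H2ac24 and H2bc6, against 6.92% of all genes. limma called 0 of 12773 genes, which is 0%, and so none of the 55 members, and no member had an unadjusted p under 0.05, against 228 of all genes tested. All members had an adjusted p of 1 by limma. The estimate was higher in 30 members and lower in 25, with a median difference of 4.52 beside 4.94 over all genes tested. Here too members of a shared region often have the same estimate, and the matching share of all genes is not given. H4c11, an H4 gene, had the smallest unadjusted p, with percentiles of 0 and 46.4 under siControl and 46.8, 70.9 and 64.0 under siH1f0. Its difference was 37.4 with an SE of 24.5. The mean body share was 58.7% under siH1f0 against 48.7% under siControl in the first naming series, and 91.1% and 89.5% against 89.6% in the second. Pooled, siH1f0 averaged 79.8% ± 18.3 (SD, n = 3), and its libraries lie on both sides of siControl 2.

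H1.0 peaks covered most core histone bodies in the dense lists and few in the sparse ones. The mean share of a member's body under H1.0 peaks was 12.1% in ground state 1, 84.6% in ground state 2, 77.5% in day 1 siControl 1 and 6.76% in day 1 siControl 2. Over all protein-coding genes it was 6.42%, 39.7%, 41.6% and 1.84%, and over other genes of at most 1 kb 4.95%, 48.0%, 40.3% and 1.81%. By this mean share members were above both comparison sets in each of the 4 lists. The body was touched in 10, 53, 51 and 6 of the 57 members, and lay wholly under peaks in 3, 42, 34 and 3. Over all protein-coding genes 53.2%, 86.5%, 91.4% and 33.0% were touched, and over other genes of at most 1 kb 7.02%, 55.1%, 52.3% and 3.08%. Members were thus touched less often than all genes in each list but ground state 2, and more often than other short genes in each. Within 5 kb, members were below all genes in the sparse lists (50.9% against 64.1%, 29.8% against 40.7%) and above them in the dense ones.

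**Figure D3:**
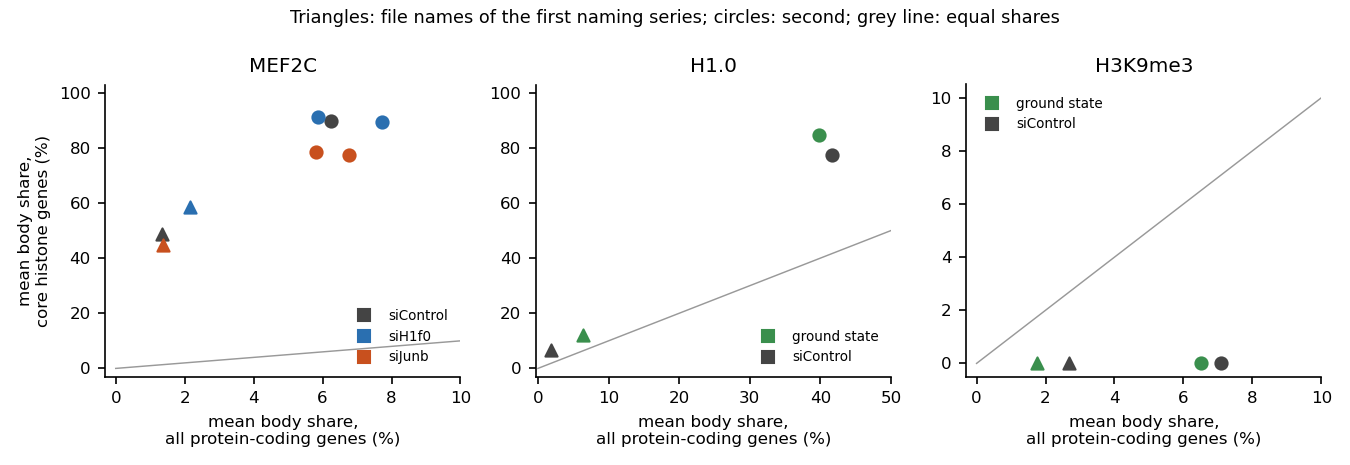
Mean share of the gene body under peaks, in percent, of the 57 core histone genes (vertical) against all protein-coding genes (horizontal), 1 symbol per library. Triangles and circles mark the 2 naming series and the grey line marks equal shares; MEF2C and H1.0 lie above the line in every library, with triangles below circles, and H3K9me3 lies at 0.

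Ground state and day 1 differed in H1.0 at the members by less than the libraries of one state did. The mean share was 48.3% in the ground state (n = 2) and 42.1% at day 1 (n = 2), a difference of -6.21 percentage points. The SD within the ground state alone was 51.3 points. Within the first naming series the difference was -5.31 points and within the second -7.10, with 1 library per state in each. It becomes 30.0 points without ground state 2 and 29.2 points without day 1 siControl 2, and 8.60 points when all lists are trimmed to the covered length of the shortest. With 2 libraries per state an exact permutation test cannot go below p = 0.333.

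At the level of genes, 4 members had a lower share in both day 1 libraries than in both ground-state libraries, against 0.873% of all protein-coding genes. No member was higher in both, against 0.567%. H2ac1 lay wholly under H1.0 peaks in both ground-state lists, the sparse one included, and at 0% in both day 1 lists. H2bc11 had 85.0% and 100% in the ground state and 26.5% and 0% at day 1. H3c6 had 75.6% and 100% against 67.0% and 0%. H2bc23 had 37.2% and 80.6% against 23.8% and 20.8%. These 4 genes encode H2A, H2B, H3 and H2B and lie in 4 different groups.

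limma called 0 of 20670 genes for H1.0, which is 0%, and none of the 56 members tested, all but H2ac18, with an adjusted p of 1 for all of them. Unadjusted p under 0.05 was reached by 20 genes, 2 of them members. These are H2ac1, with a difference of -100 points and an SE of 33.2, and H2bc11, with -79.3 points and an SE of 33.2. The SE was 33.2 for every member tested. It is a spread shared across genes, so neither the SE nor the p reflects the scatter of the single gene. The count of 4 falls to 1 with 1 kb added on each side of the body, to 2 with peaks above the median signal of their list and to 0 with lists of equal covered length. It rises to 17 without ground state 1 and to 10 without day 1 siControl 1, where the shares over all genes are 42.0% and 46.9%.

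The genes with the strongest MEF2C peaks had mixed H1.0 shares. H3c1 had an H1.0 share of 39.0% in ground state 2 and 0% in day 1 siControl 1. H4c2 had 100% and 0%, and H4c1 had 100% and 57.1%. The whole group from H4c8 to H3c1 averaged 92.4% and 82.0% in these 2 dense lists. The chromosome 3 members averaged 55.2% and 61.6% in the dense lists and 0% in both sparse ones, where the chromosome 13 members averaged 14.6% and 8.20%. H2ac18, on chromosome 3, was under no H1.0 peak in any list.

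No H3K9me3 peak lay on a core histone gene. No base of the 57 bodies lay under an H3K9me3 peak in either ground-state list or either day 1 list. Over all protein-coding genes 12.7% and 27.4% of bodies were touched in the ground state and 19.5% and 23.8% at day 1. Among other genes of at most 1 kb it was 5.31% and 18.7% in the ground state and 11.6% and 24.8% at day 1. Consequently no member was higher in both day 1 lists than in both ground-state lists, against 0.777% of all genes, and none was lower, against 0.397%. No member had a share above 0, so limma had no member to test. Within 5 kb, 1 and 3 members had an H3K9me3 peak in the ground state and 3 and 3 at day 1, against 17.5% to 37.1% of all genes.

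H4c17 was the member nearest to H3K9me3 in all 4 lists. The nearest peak lay 4.45 and 2.18 kb from it in the ground state and 2.21 and 1.95 kb at day 1. The median distance over members was 66.0 and 42.1 kb in the ground state and 44.1 and 59.5 kb at day 1. The 2 states overlap.

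The Vmn1r genes in the widest gap on chromosome 13 showed the reverse. This gap of 1487 kb between H2bc11 and H4c8 holds 36 of them, which encode vomeronasal receptors. None of the 36 had a MEF2C peak within 5 kb in any of the 8 libraries. Their mean body share under H3K9me3 peaks was 8.33% and 56.8% in the ground state and 15.5% and 79.2% at day 1, with 3, 23, 8 and 30 genes touched. Within each naming series the day 1 value is the higher one, with 1 library per state. Their mean H1.0 share was 2.39% and 30.1% in the ground state and 37.1% and 0% at day 1, below that of the members in each list.

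**Figure D4:**
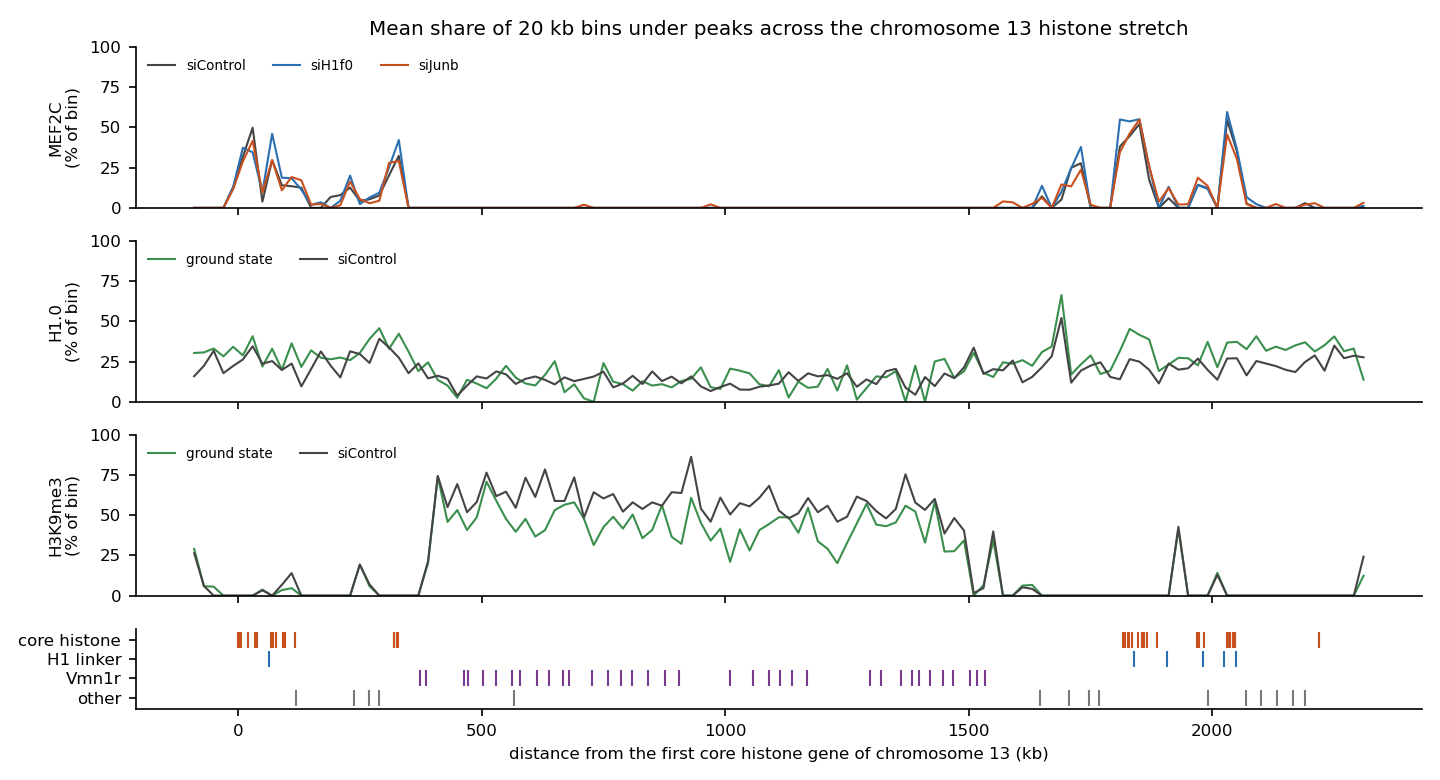
Mean share of 20 kb bins under MEF2C, H1.0 and H3K9me3 peaks, in percent of the bin, along the stretch of chromosome 13 with the 47 core histone genes, by distance in kb from the first of them. Lines are means over the libraries of a condition and ticks at the bottom mark core histone, H1 linker, Vmn1r and other protein-coding genes. MEF2C rises at the histone groups other than the last, and H3K9me3 over the Vmn1r genes between the groups. The last group, H2bc1 and H2ac1, had a MEF2C peak within 5 kb in siJunb 2 only.

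The linker histone genes that lie among the core histones on chromosome 13 were held by MEF2C as well. H1f1, H1f2, H1f3, H1f5 and H1f6 were held by MEF2C in all 8 libraries, and H1f4 in 7, all but 1 siControl library. Their mean body share under MEF2C peaks was 51.4% and 87.3% under siControl, 33.0%, 81.3% and 83.3% under siJunb, and 97.6%, 91.1% and 43.0% under siH1f0. None of the 6 bodies was touched by H3K9me3 in any list. Among all 57 other protein-coding genes between the chromosome 13 members, 7 were held in both siControl libraries, 6 in all 8 and 39 in none. Over all protein-coding genes the matching shares were 28.4%, 16.1% and 31.6%.

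Genes that act on core histone genes and proteins were counted beside them. For comparison, 28.4% of all protein-coding genes were held in both siControl libraries, 16.1% in all 8 and 31.6% in none. Of 15 genes for histone gene expression, 5 were held in both siControl libraries, 1 in all 8 and 3 in none. The 1 was Lsm11, part of the U7 particle that cuts histone messages. Npat, the coactivator of histone transcription, was held in 6 libraries, 2 of each condition. Slbp, the stem-loop binding protein, was held in 7, and Ccne1 and Ccne2, the E cyclins that drive entry into S phase, in none. Of 10 genes listed as replacement and variant histones, 7 were held in both siControl libraries and 6 in all 8. H3f3b, H2ax and H2az2 are among the 6. Of 10 histone chaperone genes, 5 were held in both siControl libraries and 3 in all 8, Asf1b, Hira and Cabin1. No gene of these lists was gained or lost under siJunb or siH1f0. Of all protein-coding genes, 0.704% were gained and 1.15% lost under siJunb, and 0.621% gained and 0.183% lost under siH1f0.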

How the data were processed

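CUT&RUN was analysed from 1 deposited peak list per sample for 16 of 24 samples. Per the submitters' processing notes, Bowtie2 and SEACR were used on mm10. Versions, the use of IgG in peak calling, the handling of duplicates and of reads that map to several near-identical histone genes were not given in the sources used here. Values deposited by the authors are signal, that is coverage summed over a peak and its maximum, and they were ranked only within a list. The number of aligned reads is unknown, and precision was read from the length of the lists and the spread between samples.

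Gene positions and promoters came from RefSeq tables of GRCm38.p6, the assembly of mm10, for 21887 protein-coding genes on chromosomes 1 to 19, X and Y. Exons were not told apart. A peak within 5 kb of either gene end, by 1 bp or more, made a gene held. Body share is the percent of the gene under peaks. MEF2C percentiles and H1.0 body shares were tested with limma 3.58.1 in R 4.3.3, two-sided, with Benjamini-Hochberg adjustment over all genes tested and a threshold of 0.05, after a check on simulated data. The MEF2C fit used all 8 libraries, and genes were tested when held in at least 2. H1.0 used its 4 libraries. Python 3.11.15 and pandas 2.3.3 did the rest.

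Members and lists were chosen with earlier results of these data known. Genes are named by rule: the 10 highest median MEF2C percentiles, members gained or lost, the members whose H1.0 or H3K9me3 libraries do not overlap between states, and the first and last of each group. H3c2, H4c11, H4c17, H2ac18, H4c14, H4c18, H3c11, H2bc22, H2bc6, H2bc4, H2ac13, and H2bc13 for its motif, were chosen after their values were seen, as were the 5 promoters shown out of at most 8 that the rule allows. Alternatives changed the window, the peaks used, list length, the overlap required, the libraries and the pairing.

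Whether equal replicate numbers pair the samples was checked by the correlation of deviations from the group means over genes. It was -0.319 for H1.0, 0.492 for H3K9me3 and -0.123 to 0.271 for the MEF2C pairs, so the numbers were not taken as pairs.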

Additional observations from a re-analysis of the deposited data

How the results depend on the processing

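Of 158 alternatives to 15 results, 141 stayed within 1.5 times or 1 SD of the value reported without reversing, 13 moved and 4 reversed. Most of the 141 are values of 0 that stayed at 0 and have no direction. The 141 also include the H1.0 mean difference of -6.21 points. It became -42.5 without ground state 1 and -41.6 without day 1 siControl 1, beside an SD of 51.3 points within the ground state. The tally therefore says little about how stable the results other than 0 are. Members held by MEF2C in all 8 libraries fell from 44 to 28 with peaks above the median signal of their list and to 17 with whole peaks inside the window, and ranged from 44 to 47 when 1 library was left out. Members held in both siControl libraries, 49 as reported, ranged from 34 to 55 over all alternatives.

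Leaving out 1 library in turn, members gained ranged from 0 to 3 under siJunb and from 0 to 4 under siH1f0, with the highest values without siControl replicate 2. With that library kept, only H2bc1 and H2ac1 could count as gained. None was lost under either knockdown in any alternative, and limma called no member in any of its alternatives. Over all genes limma called 9 for siJunb, 281 without siJunb replicate 1, 20 with no filter on libraries holding the gene, and 0 with the replicate block or without any other library.

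H1.0 rests on single libraries. Members lower in both day 1 lists numbered 4, and 1 with 1 kb flanks, 2 with peaks above the median signal and 0 at equal covered length, with 4 to 17 when 1 library was left out. Members higher numbered 0, and 1 at equal covered length (3.93% of all genes), with 0 to 7 when 1 library was left out (49.9% of all genes where it was 7). The mean difference of -6.21 points became 8.60 at equal covered length and ranged from -42.5 to 30.0 when 1 library was left out. The cause was not tested.

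With the replicate number as a block, pair 1 gave an H1.0 difference of 65.4 points and pair 2 of -77.8, since the numbers cross the naming series. A crossed pairing by naming series, chosen after seeing the data, gave 5 members lower and 0 higher, against 19.7% and 4.52% of all genes, and limma with this term called 0. The replicate block changed no MEF2C or H3K9me3 result: 0 members gained, lost or called, with a smallest adjusted p by limma of 0.731 for siJunb. H3K9me3 at the members stayed at 0 in all its alternatives.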
